A study of Mus musculus with 9 samples.

Results

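The genes described here are 10 genes of MHC class II antigen presentation, chosen by name from the 18049 genes of the deposited table: *H2-Aa*, *H2-Ab1*, *H2-Eb1*, *H2-DMa*, *H2-DMb1*, *Cd74*, *Ciita*, *Cd80*, *Cd86* and *Cd40*. All 10 were found. In RefSeq (GRCm38.p6) the 5 H2 genes lie on chromosome 17, *Ciita*, *Cd80* and *Cd86* on chromosome 16, *Cd40* on chromosome 2 and *Cd74* on chromosome 18. They were measured by bulk RNA-sequencing in 9 clones of primary cells grown from tumors of WTg mice (MPC). The mice are WTg, a cross of EL1-Luc/EL1-Tag mice with CAG-Mettl3 mice. The elastase I promoter, active in pancreatic acinar cells, drives luciferase and SV40 large T antigen in the first, and the CAG promoter, active in most cells, drives *Mettl3* in the second. All 9 libraries belong to that single untreated group and share every transgene, and neither ages nor a strain for each clone are given in the labels. The EL1 and *Mettl3* transgenes were made on different strains, FVB/N and BL/6, and class II genes are among the most polymorphic of the mouse genome, so reads of a non-reference allele can be lost in alignment. Which class II alleles a clone carried was not determined here. Each clone grew from a colony picked from passaged tumor cells. Nothing in the labels says that the clones came from separate animals, so spreads and p-values measure differences between these libraries.

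MHC class II molecules are pairs of an alpha and a beta chain that display peptides from endosomes to CD4+ T cells. The invariant chain, CD74, holds new pairs until the endosome, where H2-DM exchanges its last fragment for peptide. CIITA, the class II transactivator, binds no DNA itself and acts through factors seated on the X and Y boxes of class II promoters. CD80 and CD86 give the second, co-stimulatory signal, and CD40, the receptor for CD40 ligand, is grouped with them here. These genes are best known in dendritic cells, B cells and macrophages, and other cells switch several of them on after interferon gamma.

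The libraries are named here by the 3 prefixes of the deposited columns, whose meaning the sources used here do not give: A1, B1 to B4 and C1 to C4, numbered only as names. Levels are normalized counts, the deposited log2 values with the log2 and an offset of 4 undone. Recovered depth was 12198036 to 20453937 reads, and 3 reads, taken as the smallest level a library can show, were worth 3.79 to 6.56 normalized counts. Although the clones are labelled fibroblasts, and their titles carry the abbreviation MEF, all 12 macrophage markers were above this floor in every library, with a summed level of 531869 in C2 to 844422 in C4. Fibroblast markers summed to 85327 in B3 to 359808 in C2, with *Col1a1* between 37439 and 164208. Of the B cell markers only *Pax5* had a row, at 0 to 4.43, and *Cd4* was the T cell marker with a row, at 0 to 87.8. The dendritic cell markers with a row, *Zbtb46*, *Itgax* and *Batf3*, summed to 474.5 in C2 to 954 in C3. In bulk RNA, fewer cells of a type and less RNA per cell cannot be told apart.

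The X and Y boxes are shown because *Ciita* acts through them, and because both variable and even members hold them. RefSeq promoter windows (GRCm38.p6, 250 bases before to 50 after the start) were at hand for 5 members, *H2-Aa*, *H2-Eb1*, *H2-DMa*, *H2-DMb1* and *Cd80*. The motif letters were settled after these windows had been read: an X box core, GNAACT, followed on the same strand by a Y box, TGATTGG, which begins 20 to 40 bases further on. The pair was present in 3 of the 5. The stretches below are from chromosome 17, with the X box core and the Y box in capitals: *H2-Aa* on the minus strand at chr17:34287807-34287934, *H2-Eb1* on the plus strand at chr17:34305746-34305872, and *H2-DMb1* on the plus strand at chr17:34153067-34153194.
H2-Aa: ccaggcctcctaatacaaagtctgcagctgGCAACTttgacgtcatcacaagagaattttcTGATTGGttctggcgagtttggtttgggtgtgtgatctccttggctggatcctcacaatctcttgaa
H2-Eb1: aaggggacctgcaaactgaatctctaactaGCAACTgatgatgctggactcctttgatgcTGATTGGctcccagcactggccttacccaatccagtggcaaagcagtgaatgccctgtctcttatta
H2-DMb1: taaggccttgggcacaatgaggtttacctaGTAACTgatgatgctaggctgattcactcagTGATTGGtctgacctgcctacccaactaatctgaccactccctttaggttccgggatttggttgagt

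From the first base of the X box core to the first base of the Y box the distance was 31 bases in *H2-Aa*, 30 in *H2-Eb1* and 31 in *H2-DMb1*. The X box core began 81, 91 and 94 bases before the annotated start of these genes, in the same order. Over 32851 RefSeq windows of this length, searched on both strands, 42.8% held the X box core, 7.82% the Y box and 0.192% the pair at this spacing. The windows of *H2-DMa* and *Cd80* did not hold the pair of letters. A match describes letters and not binding, which these data do not measure.

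The members fell into 2 kinds by how much they differed between clones. *H2-Aa*, *H2-Ab1*, *H2-Eb1*, *Cd74* and *Ciita* ranged widely and had their highest level in library C3. The peptide exchange genes and the co-stimulatory genes were detected in every clone within a narrower range. The SD of log2(normalized counts + 1) over the 9 libraries had a median of 0.25 over the 14705 genes that averaged 10 normalized counts or more. It was 2.68 for *H2-Aa*, higher than in 99.4% of those genes, 2.14 for *Cd74* (98.6%), 2.12 for *Ciita* (98.5%), 1.95 for *H2-Eb1* (98.1%) and 1.33 for *H2-Ab1* (94.8%). *Ciita* averaged 10 or more only through C3, with a mean of 4.19 over the other 8 libraries, so its rank rests partly on that filter. *Cd40* had 0.72 (85.9%), *Cd80* 0.62 (82.0%) and *Cd86* 0.33 (61.0%), while *H2-DMa* had 0.27 (53.1%) and *H2-DMb1* 0.18 (33.6%).

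**Figure D1:**
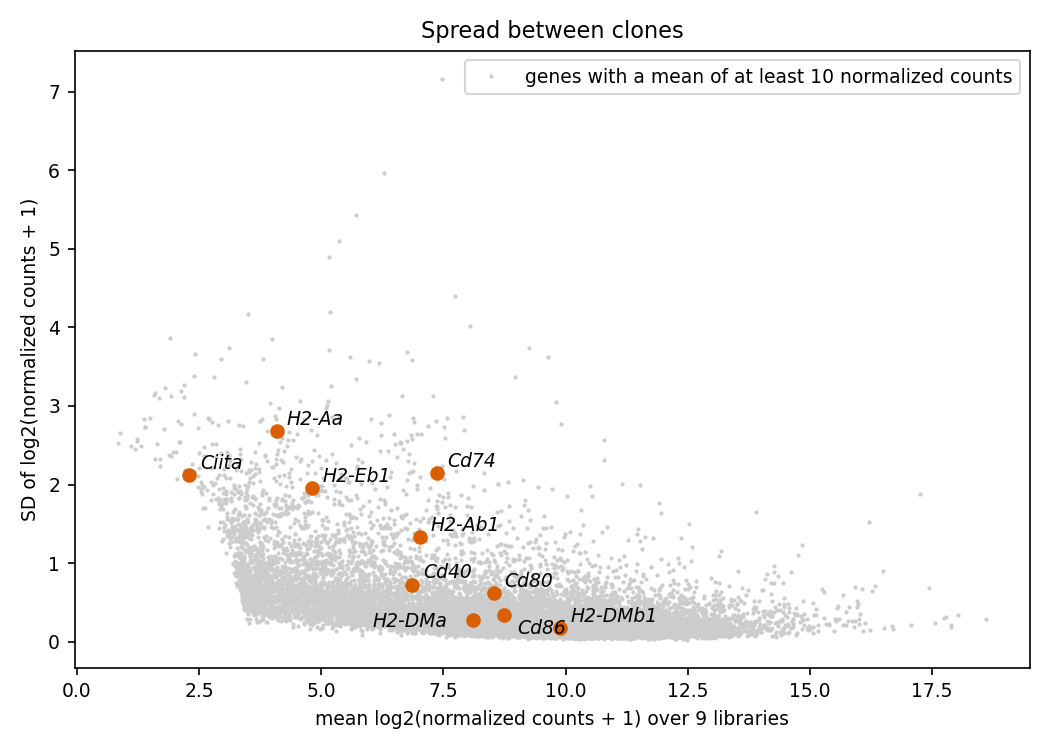
Each gray point is a gene, plotted by its mean (x axis) and SD (y axis) of log2(normalized counts + 1) over the 9 libraries; members are in orange. *H2-Aa*, *Ciita*, *Cd74*, *H2-Eb1* and *H2-Ab1* lie at SDs of 1.33 to 2.68, and *H2-DMb1* at 0.18.

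The alpha chain gene of the A pair, *H2-Aa* (ENSMUSG00000036594), was close to undetected in several clones. It had 2.19 normalized counts in A1, 1.27 in B1 and 1.56 in C2, each a single read. It had 7.12 in B2, 18.8 in B3 and 11.6 in C1, then 79.5 in B4, 67.9 in C4 and 555 in C3 (397 reads). The mean was 82.8 ± 180 (SD, n = 9) and, without C3, 23.8 ± 31.6 (SD, n = 8). C3 was thus 6.99-fold above the next library, B4, and 59.2-fold above the median of the other 8.

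*H2-Ab1* (ENSMUSG00000073421), the beta chain gene of the same pair, was read in every clone. It had 169 normalized counts in A1, 77.6 in B1, 29.9 in B2, 60.8 in B3, 179 in B4, 66.0 in C1, 211 in C2, 665 in C3 and 245 in C4. The lowest library, B2, still had 21 reads. The mean was 189 ± 194 (SD, n = 9), and C3 was 2.71-fold above the next library, C4.

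The alpha and beta chain genes therefore did not keep one ratio. Where *H2-Aa* was above the floor, *H2-Ab1* was 1.20 times *H2-Aa* in C3 and up to 5.67 times in C1 (6 libraries). In A1, B1 and C2, *H2-Aa* was at 1 read while *H2-Ab1* had 77, 61 and 135 reads. Taken against the 3-read floor, the ratio there was at least 25.7, 20.3 and 45.0. Levels of the pair were not scaled to transcript length, so only the change of this ratio between libraries can be read, and whether allele-dependent alignment took part in it was not tested.

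*H2-Eb1* (ENSMUSG00000060586), the beta chain gene of the E pair, was highest in C3, C4 and B4. Unlike *H2-Ab1*, it was well below its B4 level in A1 and C2, although C2 was at its median over the libraries. It had 8.75 normalized counts in A1, 19.1 in B1, 5.70 in B2, 13.02 in B3, 76.97 in B4, 11.6 in C1, 15.6 in C2, 450.5 in C3 and 82.7 in C4. In the 6 libraries with *H2-Aa* above the floor, the ratio of *H2-Eb1* to *H2-Aa* stayed between 0.692 and 1.22. The alpha chain gene *H2-Ea* was not analysed here.

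*Cd74* (ENSMUSG00000024610), the invariant chain gene, had 19.7 normalized counts in A1, 116 in B1, 99.7 in B2, 187 in B3, 461 in B4, 71.1 in C1, 43.7 in C2, 3058 in C3 and 443 in C4. Its mean was 499.8 ± 973 (SD, n = 9), against 180.04 ± 175 (SD, n = 8) without C3. C3 was 6.64-fold above the next library, B4, and A1, B1, B2, C1 and C2 lay at or below 116. B4 and C4 were again the second and the third of the order, as in *H2-Aa*, and they held the same pair of places in *H2-Eb1* with C4 ahead, but the 95% Poisson intervals of B4 and C4 overlapped in all 3 genes.

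*Ciita* (ENSMUSG00000022504), the transactivator gene, was at the edge of detection in most clones. There was no read in A1, C1 or C2, which allows up to 8.07, 4.77 and 5.76 normalized counts (upper ends of the 95% Poisson intervals, counting error only). There were 8 reads in B1 (10.2 normalized counts), 4 in B2 (5.70), 2 in B3 (2.89), 7 in B4 (8.83), 4 in C4 (5.91) and 62 in C3 (86.7). The 95% Poisson interval of C3 does not reach the interval of any other library. Outside C3 the order of the clones in *Ciita* rests on at most 8 reads a library, and those libraries could not be ranked at this depth.

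**Figure D2:**
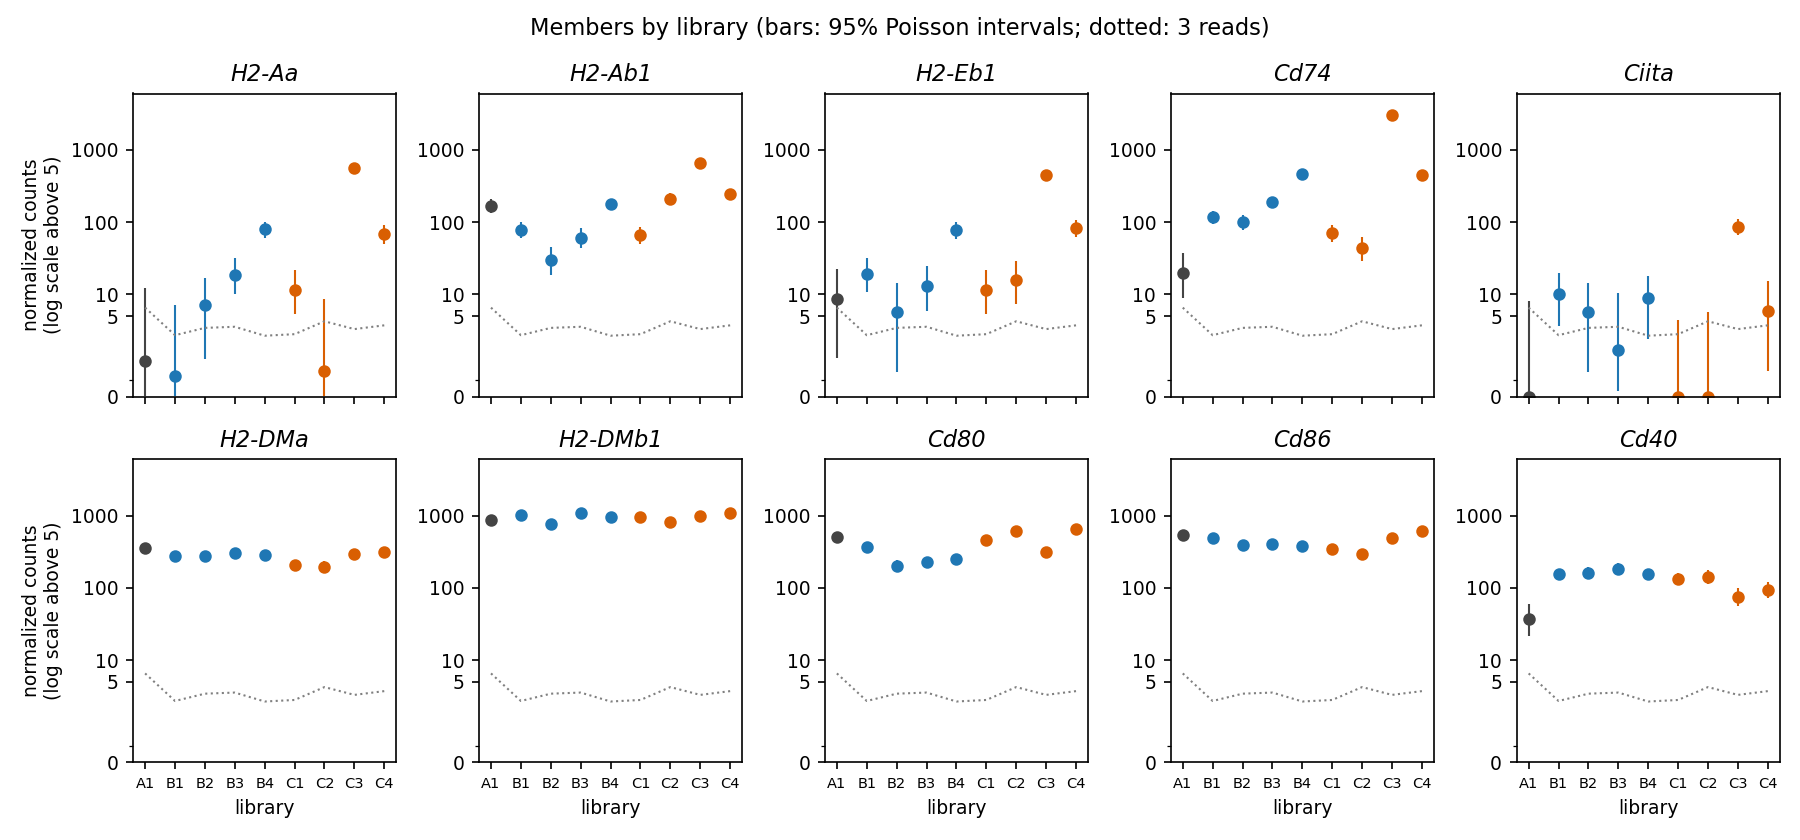
Normalized counts of each member (y axis, linear to 5 and logarithmic above) in the 9 libraries (x axis, colored by prefix), with 95% Poisson intervals of the read count and a dotted line at 3 reads. *H2-Aa*, *H2-Ab1*, *H2-Eb1*, *Cd74* and *Ciita* peak in C3, while *H2-DMa* and *H2-DMb1* are nearly level.

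C3 stood apart in these 5 genes. A library was counted as far above the rest where its gap to the next library exceeded the share of the whole range set by Dixon's 95% critical value for 9 samples. This held for C3 in 5 of the 10 members, against 0.524% of 14705 genes, and the gap was 0.859 of the range for *H2-Aa*, 0.661 for *H2-Ab1*, 0.827 for *H2-Eb1*, 0.855 for *Cd74* and 0.883 for *Ciita*. C3 was taken up because these members were highest in it, so this contrast is not a test. By single library the share ran from 0.218% (B4) to 3.21% (A1). A gap this large in any library, above or below the rest, was found in 10.0% of these genes. The other 5 members were not far above in C3: its ratio to the median of the other 8 was 1.04 for *H2-DMa*, 1.04 for *H2-DMb1*, 1.22 for *Cd86*, 0.760 for *Cd80* and 0.510 for *Cd40*. Among the genes, 28 of 14705 were over 3-fold above every other library in C3, and *Ciita*, *H2-Aa*, *Cd74* and *H2-Eb1* were at places 15, 16, 17 and 21 of that order. *Ciita* is among the 14705 genes only through C3, as its mean over the other 8 libraries was 4.19. Its place, and its part in the 5 of 10, therefore rest partly on the filter.

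Most genes ahead of the members in that order encode enzymes of pancreatic acinar cells. The trypsinogen gene *Prss2* had 554 normalized counts in C3 and 31.2 in C2, and at most 7.64 in any other library. The chymotrypsinogen gene *Ctrb1* had 610.0 in C3 and the carboxypeptidase gene *Cpa1* 509. A list of 6 acinar genes, chosen after these values were seen, summed to 2415 in C3, 396 in C2 and 144 to 313 in the other 7 libraries. Without *Cela1*, which had 144 to 293 over all libraries, the other 5 summed to 2126 in C3, 175 in C2 and at most 20.4 elsewhere. In C2, second in the acinar sum, *Cd74* was second lowest, *H2-Aa* was at 1 read and *Ciita* at none. There *H2-Eb1* had 15.6, its median over the libraries, and *H2-Ab1* had 211, below only C3 and C4. The part of the acinar genes in the level of the class II genes was not tested. The macrophage sum of C3, 535346, was the second lowest of the 9, with 287615 of it from *Lyz2*, whereas its mean log2 macrophage level, 14.02, was above those of C2 (13.63), C1 (13.76) and A1 (13.78). Of the dendritic cell markers with a row, *Itgax* was highest in C3 at 914, beside 880 in A1, *Zbtb46* was lowest in C3 at 25.2, and *Batf3* had 15.4 within 6.24 to 20.3 over the clones.

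**Figure D3:**
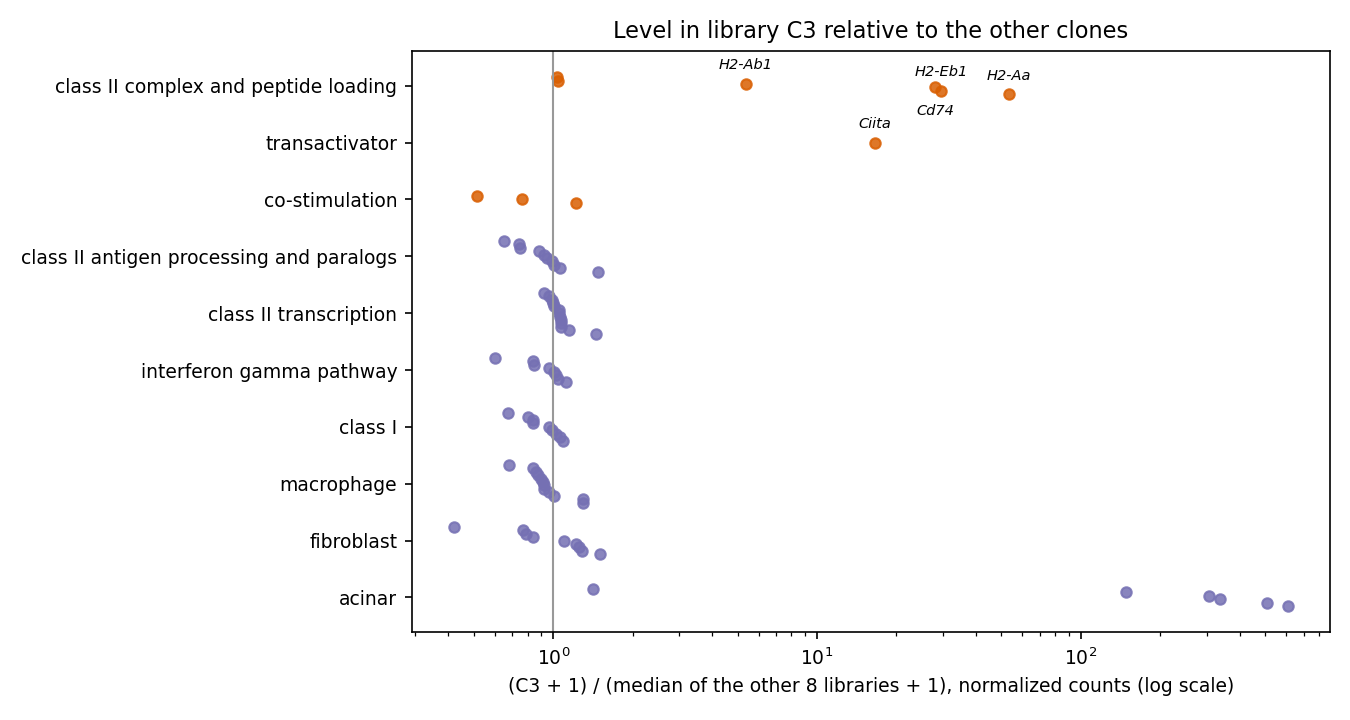
For each gene of the lists (rows), the level in C3 divided by the median of the other 8 libraries, after adding 1 to both normalized counts (logarithmic x axis); members are in orange and the other lists in purple. *H2-Ab1*, *Ciita*, *Cd74*, *H2-Eb1*, *H2-Aa* and 5 of 6 acinar genes lie to the right, whereas the other class II lists lie around 1.

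*H2-DMa* and *H2-DMb1*, the chains of the H2-DM peptide exchanger, were even across the clones, though their spread exceeded counting noise (chi-square per degree of freedom 5.42 for *H2-DMa*). *H2-DMa* (ENSMUSG00000037649) had 352 normalized counts in A1, 277 in B1, 278 in B2, 302 in B3, 283 in B4, 207 in C1, 197 in C2, 291 in C3 and 312 in C4, a mean of 278 ± 48.9 (SD, n = 9). *H2-DMb1* (ENSMUSG00000079547) had 882 in A1, 1017 in B1, 766 in B2, 1082 in B3, 967 in B4, 953 in C1, 804 in C2, 995 in C3 and 1078 in C4, a mean of 949 ± 112 (SD, n = 9). The highest library was 1.41-fold the lowest for *H2-DMb1*, which holds the X and Y pair as *H2-Aa* and *H2-Eb1* do, and 1.79-fold for *H2-DMa*. In A1, C1 and C2, without a read of *Ciita*, *H2-DMb1* had 403 to 737 reads. The ratio of *Cd74* to *H2-DMb1* ran from 0.0223 in A1 to 3.07 in C3. *H2-DMb2*, a near-identical neighbor that can take reads from *H2-DMb1*, had 25.9 in C1 to 111 in B3, and the ratio of *H2-DMb1* to it, not scaled to length, ran from 8.54 to 36.8.

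The co-stimulatory genes were detected in all 9 clones. *Cd80* (ENSMUSG00000075122), a ligand of CD28 and CTLA4, had 505 normalized counts in A1, 363 in B1, 204 in B2, 226 in B3, 254 in B4, 462 in C1, 617 in C2, 313 in C3 and 648 in C4. Its mean was 399 ± 167 (SD, n = 9), with the 3 lowest values in B2, B3 and B4. *Cd86* (ENSMUSG00000022901), which binds the same receptors, had 545 in A1, 489 in B1, 390.2 in B2, 404 in B3, 384 in B4, 348 in C1, 292 in C2, 485 in C3 and 610.0 in C4, a mean of 438 ± 101 (SD, n = 9). The ratio of *Cd80* to *Cd86* ranged from 0.522 in B2 to 2.11 in C2.

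*Cd40* (ENSMUSG00000017652), the receptor for CD40 ligand, had 37.2 in A1, 155 in B1, 162 in B2, 184 in B3, 154 in B4, 135 in C1, 142 in C2, 75.5 in C3 and 94.5 in C4. A1, the single library of its prefix, was lowest. *Cd40* was the 1 member of 10 whose prefix B libraries (154 to 184) did not overlap the prefix C libraries (75.5 to 142). The same lack of overlap, in either direction, was found for 10.3% of 14705 genes, so 1 of 10 is near the background.

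Across the clones, *Cd74* ran with *H2-Aa*, *H2-Eb1* and *Ciita*. On log2(normalized counts + 1) over 9 libraries, Pearson's r with *Cd74* was 0.926 for *H2-Aa* (Spearman's rho 0.80), 0.904 for *H2-Eb1* (rho 0.783) and 0.898 for *Ciita* (rho 0.848). These were the places 3, 9 and 11 of 14704 genes ordered by r. Without C3, r was 0.848, 0.780 and 0.778 (n = 8) and the places were 92, 298 and 307, among the same genes. *Ciita* is among these genes only through C3, as its mean over the other 8 libraries was 4.19. Its places therefore rest partly on the filter and, without C3, on at most 8 reads a library. *H2-Ab1* was less alike, with r of 0.537 and, without C3, 0.0949. For *H2-DMa*, *H2-DMb1*, *Cd86*, *Cd40* and *Cd80*, r with *Cd74* was 0.215, 0.515, 0.279, 0.0977 and -0.307. These coefficients describe libraries that differ in depth and share a scaling, and were not tested.

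**Figure D4:**
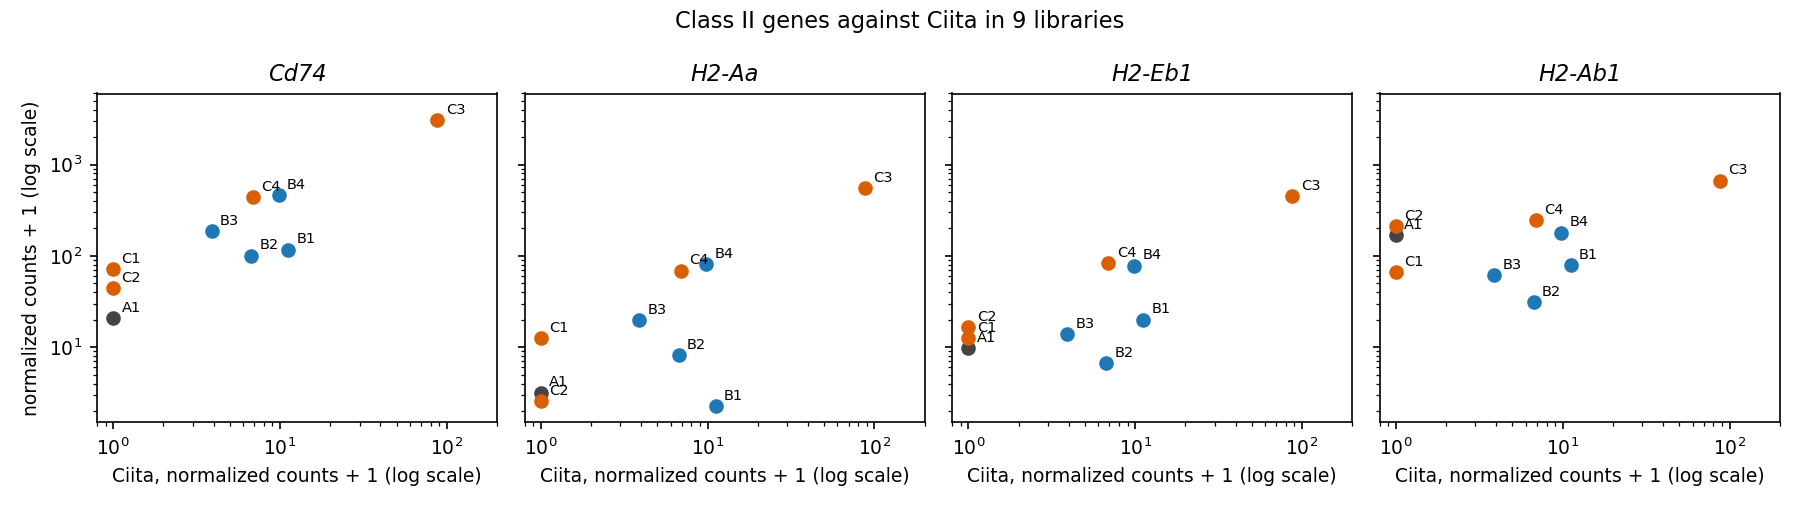
*Cd74*, *H2-Aa*, *H2-Eb1* and *H2-Ab1* (y axes) against *Ciita* (x axes) in the 9 libraries, as normalized counts + 1 on logarithmic axes, colored by prefix. C3 is at the upper right of every panel, and in A1, C1 and C2, with no *Ciita* read, *H2-Ab1* is between 66.0 and 211.

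Whether any gene followed *Ciita* across the clones was asked with limma over 16961 genes, as a slope in log2 per log2 unit of *Ciita*. No gene passed an adjusted p of 0.05 (0% called, 2343 at an unadjusted p under 0.05), and 0 of the 9 other members passed, 3 of them at an unadjusted p under 0.05. Voom on the recovered reads called none either, with 4 members and 2325 of all genes at an unadjusted p under 0.05. The median slope was 0.06 over the 9 members and 0.0042 over all genes. *Cd74* had a slope of 0.91 ± 0.15 (SE), with an unadjusted p of 0.00012 and an adjusted p of 0.28 in limma. The slope was 0.71 ± 0.19 for *H2-Eb1* (limma adjusted p = 0.31), 0.91 ± 0.29 for *H2-Aa* (0.32) and 0.25 ± 0.19 for *H2-Ab1* (0.54). For *H2-DMa*, *H2-DMb1*, *Cd86*, *Cd40* and *Cd80* slopes lay between -0.13 and 0.06. Without C3 the slope of *Cd74* was 0.78 and that of *H2-Ab1* -0.12. Counting error in *Ciita* enters the x axis of this fit.

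By likeness of pattern over all 9 libraries, the gene nearest to *H2-DMb1* was *Mynn* (Pearson's r 0.946), followed by *4632404H12Rik* (0.934) and *Vps37a* (0.933). *Phkb* (0.950), *Reep5* (0.938) and *Taok2* (0.937) were nearest to *Ciita*, whose pattern outside C3 rests on at most 8 reads a library. *Mvp* (0.972), *Ccng2* (0.949) and *Natd1* (0.949) were nearest to *Cd86*. None of these belongs to the lists described here.

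*Mettl3* stood apart in a single clone. The gene, which encodes the methyltransferase that writes m6A on mRNA, had 2184 normalized counts in A1 and 468 to 621 in the other 8. Reads of the transgene and of the mouse's own gene were not separated. Of 16961 genes, 417 passed limma's test for a slope on *Mettl3* (2.46%; 55 rose and 362 fell), and without A1 none did (1775 at an unadjusted p under 0.05). With all 9 libraries, an unadjusted p under 0.05 in limma was found for 1 of the 10 members and for 2476 of the 16961 genes. Of the members, 0 of 10 passed after adjustment, at a median slope of -0.42 over the 10 (-0.0021 over all genes). Voom on the recovered reads called 0 of the 10 as well. *Cd40*, with the lowest unadjusted p, had a slope of -0.77 ± 0.24 (limma adjusted p = 0.16), which became 1.79 without A1 (adjusted p = 0.49). *Cd74*, lowest in A1, had a slope of -1.69 ± 0.83 (limma adjusted p = 0.39).

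The members were then set against the macrophage markers, the mean log2 level of 12 genes such as *Csf1r*, the receptor of the macrophage growth factor. Of 16950 genes, 2193 passed (12.9%), and 1291 rose with the macrophage level (7.62%). Of the members, 0 of 10 passed, by voom too, at a median slope of 0.39 over the 10 (0.05 over all genes). In limma an unadjusted p under 0.05 was found for 1 of the 10 and for 5058 of the 16950 genes. *Cd80* had a slope of -1.37 ± 0.51 (limma adjusted p = 0.11), which passed only when C4 was left out (-1.48, adjusted p = 0.037). *Ciita* had a slope of 3.68 ± 2.01 (limma adjusted p = 0.25), which passed only when C3 was left out (4.03, adjusted p = 0.043). For *H2-DMa* and *H2-DMb1* the slopes were 0.43 ± 0.28 and 0.27 ± 0.18 (limma adjusted p = 0.34 and 0.36).

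MHC class I genes, which present peptides of the cytosol to CD8+ T cells, were counted in the same fit. Of 9 genes, 8 rose with the macrophage level, where 7.62% of all genes rose. The median slope was 0.65 for the list beside 0.05 for all genes tested. The immunoproteasome subunit gene *Psmb9* had a slope of 1.32 ± 0.15 (limma adjusted p = 0.0043), from 259 normalized counts in C2 to 583 in B3. The heavy chain genes *H2-K1* and *H2-D1* had slopes of 0.76 ± 0.17 and 0.88 ± 0.17 (limma adjusted p = 0.021 and 0.015). *Nlrc5*, the relative of *Ciita* that acts on class I promoters, had 0.44 ± 0.35 (limma adjusted p = 0.43) and its lowest level, 477, in C3. With the prefix as a covariate, where A1 drops out, 0 of these 9 genes and none of all genes passed (2402 at an unadjusted p under 0.05). Without B1, B3 or C2, 2, 3 and 3 of the 9 class I genes passed. With all 9 libraries, 2 of 9 fibroblast markers fell, *Col1a1* and *Pdgfra*, where 902 of all 16950 genes fell. Whether class I and class II members differ in slope was not tested.

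**Figure D5:**
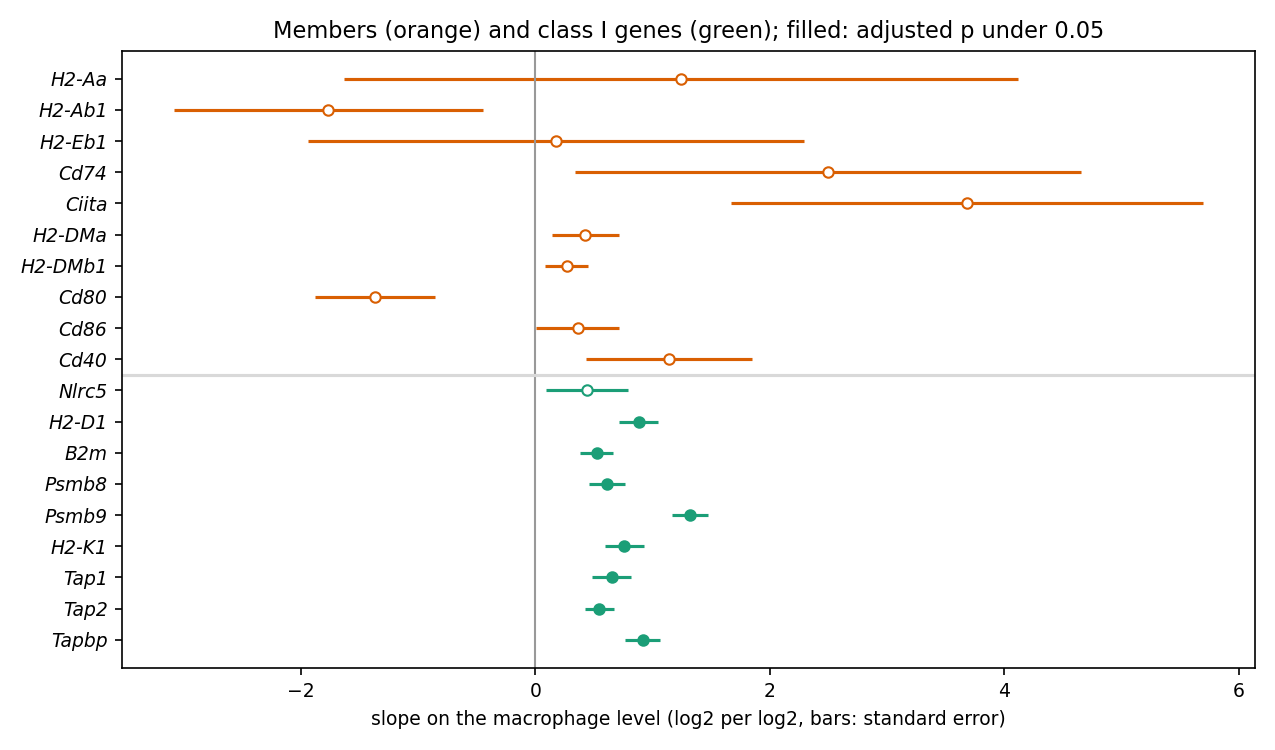
Slope on the macrophage level (x axis, log2 per log2 unit, with SE) for the 10 members (orange) and 9 class I genes (green); filled points have an adjusted p under 0.05 in limma. The 8 filled points are class I genes, with slopes from 0.53 to 1.32, and every member is open.

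Of 13 genes on a list for class II transcription, 12 were above the floor in all clones, those without a *Ciita* read included, and *Irf4* was below it in A1 and C2. The list also holds *Spi1*, *Irf8* and *Irf4*, which are not counted here among the factors seated on the X and Y boxes. *Rfx5*, *Rfxap* and *Rfxank*, the subunits of the RFX complex that binds the X box, had 345 to 613, 184 to 444 and 183 to 266 normalized counts. *Spi1*, which encodes the myeloid factor PU.1, had 3289 to 8023, and *Irf8* 1501 to 3486. Of the 13 genes, 5 rose with the macrophage level, *Irf8*, *Spi1*, *Irf4*, *Creb1* and *Ep300*, and none fell (median slope 0.43), where 7.62% of all genes rose. In C3 the 13 genes lay between 0.92 and 1.45 times the median of the other libraries after adding 1.

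The genes reported here of the interferon gamma pathway, which induces *Ciita* in many cells, lay in C3 between 0.60 and 1.11 times the median of the other libraries on the same scale. *Irf1* had 1104 normalized counts in C3, within 798 to 1702 over the clones. *Ifngr1* and *Irf1* rose with the macrophage level (slopes 1.29 ± 0.17 and 0.92 ± 0.24, limma adjusted p = 0.0062 and 0.037), and *Jak2* fell (-0.70 ± 0.20, limma adjusted p = 0.045). The calls of *Irf1* and *Jak2* were lost in 9 and 10 of 19 alternative fits, with the sign kept. The fit without A1, which lost both calls, is counted there on its own and again among the libraries left out. The cytokine gene *Ifng* itself was not analysed here.

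Genes of peptide preparation were read in every clone, at a median slope of 0.72 on the macrophage level for the 10 with a row. *Ctss*, a cathepsin that trims the invariant chain, had 22163 to 40168 normalized counts, *Ctsl* 18667 to 35199 and the asparagine endopeptidase gene *Lgmn* 17868 to 31654. *Lgmn* and *Marchf1*, whose product ubiquitinates class II molecules, were the 2 of 10 genes that rose with the macrophage level, where 7.62% of all genes rose. *Ifi30*, a thiol reductase of the endosome, had 709 in A1 and up to 2151 in C1, and fell with *Mettl3* (slope -0.58 ± 0.10, limma adjusted p = 0.019), a call lost, like every call on *Mettl3*, without A1 (slope -0.17), and with voom (adjusted p = 0.10). *H2-Ob*, a chain of the H2-O modulator of H2-DM, had 8.68 to 30.6, whereas *H2-Oa* and *H2-Eb2* were not analysed here.

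Of 8 partners and relatives of the co-stimulatory genes, *Icosl*, the ligand gene of ICOS, rose with the macrophage level (slope 0.95 ± 0.21, limma adjusted p = 0.022) and the other 7 did not pass. That is 1 of 8, near the 12.9% called among all genes. The call was lost without B1, B3 or C2, and with the prefix as a covariate (limma adjusted p = 0.33). *Cd28*, known as a T cell receptor gene for CD80 and CD86, had 401 in C2 to 2464 in B3, and the checkpoint ligand gene *Cd274* had 112 in C2 to 288 in B3. *Tnfsf9* had 267 to 687, *Icam1* 653 to 1164, *Cd276* 502 to 946, *Traf3* 1385 to 1823 and *Traf6* 724 to 954.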

How the data were processed

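Stranded poly(A) libraries of 9 WTg MPC clones were sequenced. The submitters' processing notes name FastQC 0.11.9, STAR 2.7.10, RSEM 1.3.3 and the build GRCm38. The scaling and annotation are not given in the sources used here. The authors deposited log2 values of scaled counts with an offset of 4 for 18049 genes. A protocol field names a drug, but the treatment label is none, so the clones were taken as untreated. Another 6 columns of the deposited table belong to other samples and were not used here.

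Normalized counts were obtained by undoing the log2 and subtracting 4. Reads were recovered from the step of the low values. Of the nonzero values under 500 reads, 100% were whole within 0.05. Members were matched by symbol. For *Cd86* the symbol cell also holds the identifier, so its first word was used. Of 18049 identifiers, 17975 matched the gene names given. No 2 libraries agreed within sampling noise (the closest pair, B1 and B4, differed by a chi-square of 24.1 for each degree of freedom).

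Slopes on log2 *Ciita*, log2 *Mettl3* and the mean log2 of 12 macrophage markers were fitted with limma 3.58.1 (R 4.3.3; lmFit, then eBayes, trend included) on the log2 of normalized counts plus 1, over genes with a mean of at least 1, with Benjamini-Hochberg adjustment over all genes tested. The plan expected that the unit could be counts, in which case another test was set. The script was tested on simulated data. Intervals (95% Poisson) and the floor of 3 reads cover counting error only. Figures and tables used matplotlib 3.10.9, scipy 1.17.1, pandas 2.3.3 and numpy 2.4.6 in Python 3.11.15. Promoters come from RefSeq (GRCm38.p6). Ratios between genes are not scaled to transcript length, which was not at hand.

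The members and lists were chosen with earlier results of these data known. Named were all 10 members, their transcription, processing, interferon, class I and co-stimulatory genes and cell type markers by list, and the 3 genes most alike in pattern to the member of highest mean in each of 3 roles. A gene of the interferon list is not reported here. Genes ahead of the members in C3 and the acinar list were picked after their values were seen. Alternatives were 2 rescalings, a pseudocount of 0.1, the deposited log2 values, 2 other filters, limma without a trend, voom on recovered reads, the prefix as a covariate, leaving out A1 and leaving out each library. Added after seeing the data were fits without the 3 libraries lacking *Ciita* reads and with the acinar level as a covariate.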

Additional observations from a re-analysis of the deposited data

Results flagged for a closer look

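Of 92 genes examined over the 9 clones, 18 had a library whose gap to its neighbor was over Dixon's 95% critical share of the range, beside 10.0% of all 14705 genes that averaged 10 normalized counts or more. Dixon's value flags about 1 in 20 for normally distributed values, which unlogged normalized counts were not shown to be. The 92 also include genes with a mean under 10, such as *Krt18* at 1.62. The acinar genes were put on their list for being high in C3. C3 was the high library in 5 members, with the gap at 0.859 of the range for *H2-Aa*, 0.661 for *H2-Ab1*, 0.827 for *H2-Eb1*, 0.855 for *Cd74* and 0.883 for *Ciita*. It was also the high library in 5 acinar genes, *Prss2* (0.944), *Cela2a* (0.936), *Ctrb1* (0.928), *Cpa1* (0.923) and *Amy2a5* (0.832). The part of the latter in the former was not tested.

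C2 was far below the rest for *Rfxank* (0.554) and *Cd274* (0.560) and far above for *Traf3* (0.551). A1 was far below for *Ifi30* (0.502) and far above for *Jak1* (0.504) and *Fap* (0.702). B3 was high for *Lum* (0.647) and C4 for *Cdh1* (0.683).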

How the results depend on the processing

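No paired analysis was possible because there is 1 group and the columns carry no shared replicate number. Levels per kilobase were not run, since transcript lengths were not at hand. The mean levels of the 10 members moved by less than 1 SD under the 2 rescalings and without A1. Leaving out 1 of 9 libraries cannot move a mean by 1 SD, and the rescaling factors were at most 0.068 in log2. This comparison could therefore hardly have come out otherwise. The number of genes called on *Ciita* was 0 to 1 when each library was left out and 0 under the other alternatives. On *Mettl3* it was 656 with a pseudocount of 0.1, 72 with voom, 0 with the prefix as a covariate, 0 without A1, and 0 to 517 over the libraries left out. On the macrophage level it was 1383 without a trend, 0 with the prefix as a covariate, and 273 to 2223 over the libraries left out, the lowest being 273 without C2, 325 without B1 and 684 without B3. The class I genes that rose were then 0 with the prefix as a covariate and 2 to 8 over the libraries left out. Members called on the macrophage level were 0 to 1, *Ciita* without C3 and *Cd80* without C4.

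Of 474 refits of the 24 slopes printed, 424 kept their sign and their side of the threshold, 35 lost it with the same sign, 13 changed sign without passing it and 2 newly passed it. The fit without A1 is counted in these refits on its own and again among the libraries left out. No member could be among the 35, since none had passed in the main fits. On *Ciita*, the slope of *Cd40* was -0.032 on the deposited log2 values, -0.0063 with voom, -0.14 with the prefix, -0.11 without A1, -0.11 to 0.22 over the libraries left out and -0.25 without the 3 libraries lacking *Ciita* reads. In that last fit *H2-DMa* had -0.0079 and *Cd80* 0.041. The slope of *H2-Ab1* was -0.12 to 0.36 over the libraries left out, negative without C3. On *Mettl3*, *Ifi30* had 0.52 with the prefix, and *Cd40* had 0.38 with the prefix and -0.86 to 1.79 over the libraries left out, the highest without A1. Causes were not tested. With at most 8 reads of *Ciita* outside C3, depth limits what these fits can show of it.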
